A study of Mus musculus with 5 samples.

Results

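The genes described here are 36 genes of central carbon metabolism: 4 transporters of glucose and lactate, 14 genes of glycolysis and lactate formation, 4 of the pentose phosphate path, 2 of pyruvate dehydrogenase and 12 of the tricarboxylic acid (TCA) cycle. They were taken by name from a table of 23234 genes, and all 36 were in it. RNA was sequenced from light zone B cells of the germinal centre, the structure in which activated B cells mutate their antibody genes and are selected. The comparison asks how loss of Csk, a kinase that holds Src-family kinases in check and so restrains signalling from the B cell receptor, affects the transcripts of these cells.

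Donor naïve B cells carried B1-8hi(KI/+), a knocked-in antibody heavy chain that gives binding to the hapten NP, together with ERT2cre(KI/+), a Cre recombinase that tamoxifen activates, and the CD45.1/2 marker. They were either Csk(+/+) or Csk(fl/fl), the latter written Csk(f/f) for the libraries, and they were placed in C57BL/6J hosts. NP-CGG in alum was given into the peritoneum on day 0, both groups received tamoxifen on days 8 and 9, and NP-binding donor light zone cells were sorted from the spleen on day 11. There were 3 Csk(+/+) and 2 Csk(f/f) libraries, named as biological replicates; how many mice went into each was not given in the sources used here. Values are FPKM, sequenced fragments scaled for transcript length and for library depth, so levels of different genes can be set beside each other. Where 3 values stand against 2, they are Csk(+/+) replicates 1, 2 and 3 against replicates 1 and 2 of the libraries labelled Csk(f/f).

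Lower Csk transcript was not seen under the Csk(f/f) label. The gene had FPKM of 378, 436 and 415 against 453 and 476 (limma adjusted p 0.439). Which exons are deleted was not given in the sources used here, and a gene-level value also counts transcripts that lack exons, so it does not check the genotype. Every direction below rests on the labels. Estimated depth ran from about 9650000 to about 24200000 fragments a library. All 5 B cell and all 5 germinal centre marker genes were expressed, and no T cell marker exceeded 0.412 FPKM. The 8 mitosis genes examined all had lower means under the Csk(f/f) label, with summed FPKM of 326, 326 and 363 against 258 and 216; their part in the results below was not tested. Summed FPKM of 5 myeloid genes, mostly Lyz2, was 9.72, 8.71 and 1.99 against 12.5 and 10.8, and that of 4 erythroid genes varied from 100.4 to 783 without separating the groups. In bulk samples such as these, a different mix of cells and a different amount of RNA per cell cannot be told apart.

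Glycolysis splits glucose into pyruvate in the cytosol, and lactate dehydrogenase and the monocarboxylate transporters turn pyruvate into lactate and carry it out. The pentose phosphate path branches off after the first step and yields NADPH and ribose for nucleotides. Pyruvate dehydrogenase feeds pyruvate carbon into the mitochondrial TCA cycle, whose enzymes pass electrons to the respiratory chain. B cells are known to take up more glucose and to raise glycolysis after antigen receptor stimulation.

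Of the 36 genes, 35 passed the filter of at least 1 FPKM in at least 2 of the 5 libraries, as did 10242 genes of the table. None of the 35 differed between the groups at an adjusted p under 0.05 (limma on log2(FPKM + 1), Benjamini-Hochberg over all tested genes), where 0.0781% of all tested genes did. The smallest adjusted p among them was 0.154. At an unadjusted p under 0.05, 3 genes had higher means in the libraries labelled Csk(f/f), namely Pfkp, Ogdh and Suclg1, beside 8.07% of all tested genes. In the other direction 2 had lower means, Pdha1 and Sucla2, beside 13.6% of all tested genes. These 5 of 35 are 14.3%, below the 21.7% of all tested genes that reached the same unadjusted level in either direction.

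The members leaned to higher means by a small amount. Their median log2 fold change was 0.14, with 24 positive and 11 negative, while the median over all tested genes was -0.01 and 48.7% were positive. Across the series the log2 fold change climbed with the GC content of the transcript, the share of G and C bases (Spearman rho 0.71 over 10119 genes), and across the 35 members rho was 0.41. Neither correlation is over independent points, since all genes share the same 5 libraries. After each library's trend with GC content was subtracted, the members' median was 0.01, with 21 positive and 14 negative (50.2% of all tested genes positive). In that analysis 4 of the 35 reached an unadjusted p under 0.05 (Pfkp and Suclg1 higher, Pdha1 and Sucla2 lower), which is 11.4% beside 9.96% of all tested genes, and none passed after adjustment, beside 0.0791% of all tested genes (smallest adjusted p 0.357, limma). With GC correction but without Csk(+/+) replicate 3 the members' median was 0.15, with 25 positive and 10 negative (49.9% of all tested genes positive). Of the members, 28.6% then reached an unadjusted p under 0.05 (limma), beside 20.4% of all tested genes. Other libraries were not left out together with GC correction, so whether this is particular to replicate 3 was not tested.

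**Figure D1:**
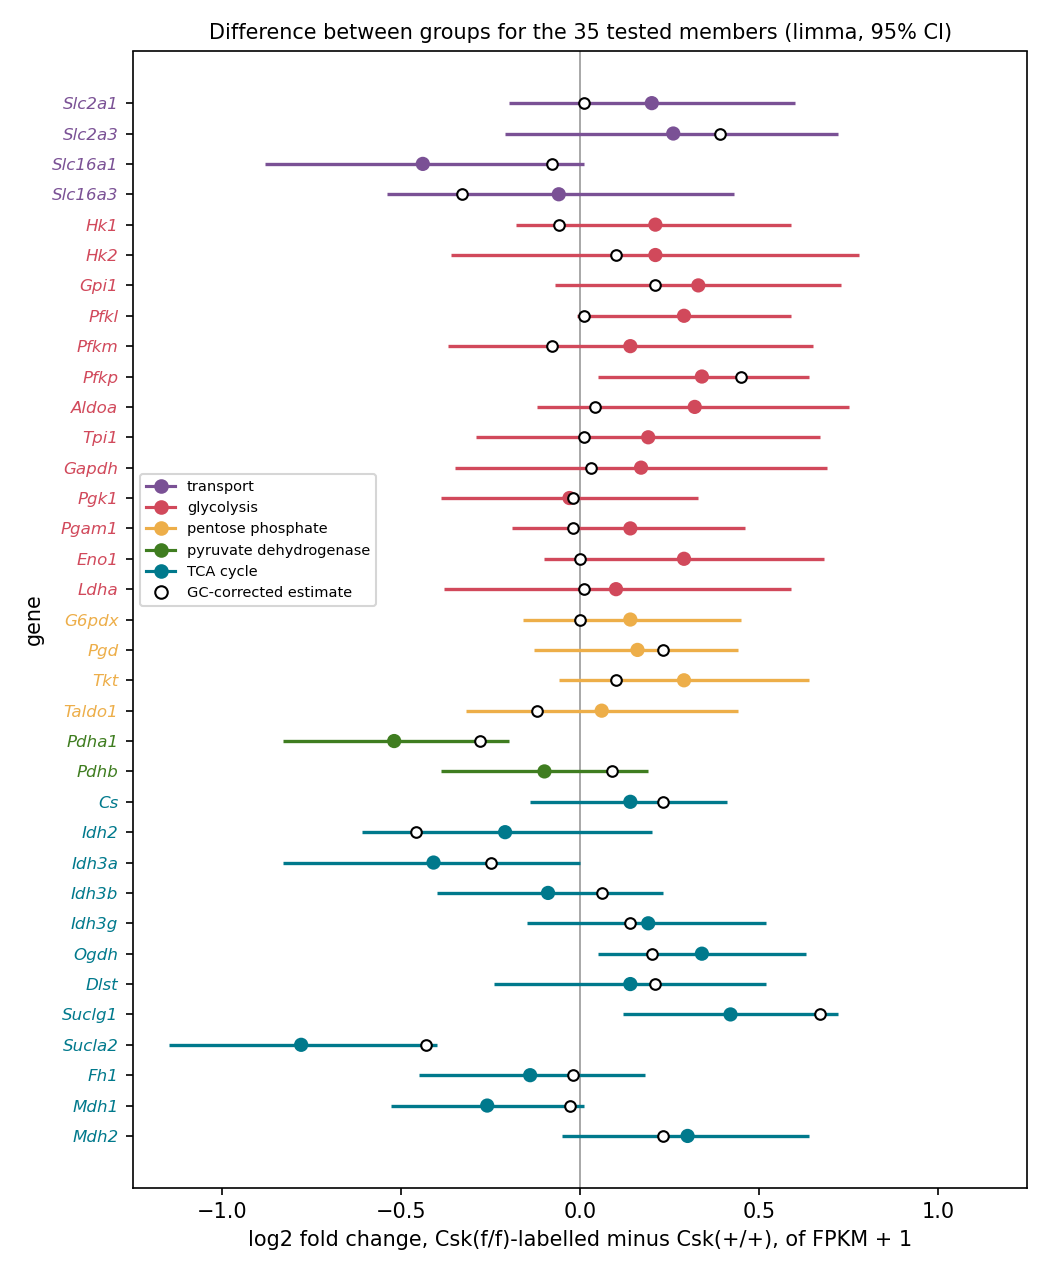
Log2 fold change of FPKM + 1 (horizontal axis, Csk(f/f)-labelled minus Csk(+/+)) for each of the 35 tested genes (vertical axis), with filled points and 95% confidence intervals from limma, coloured by step of metabolism, and open points for the estimate after correction for GC content. Intervals cross 0 for all genes except Sucla2 (-0.78), Pdha1 (-0.52), Pfkp (0.34), Ogdh (0.34) and Suclg1 (0.42), and most glycolytic points move toward 0 on correction.

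Sequences stand here for the pair of genes with the most opposed values, the succinyl-CoA synthetase subunits Sucla2 and Suclg1, and for Ldha, the most abundant of the members whose window holds the letters CACGTG. Each is the 250 bases before an annotated start on the plus strand of GRCm38.p6, from the RefSeq promoter table. Capitals mark CG dinucleotides in the lines for Sucla2 (chr14:73552536-73552785) and Suclg1 (chr6:73248255-73248504), and matches to ACGTG on either strand in the line for Ldha (chr7:46845554-46845803, the first of 2 annotated starts).
Sucla2: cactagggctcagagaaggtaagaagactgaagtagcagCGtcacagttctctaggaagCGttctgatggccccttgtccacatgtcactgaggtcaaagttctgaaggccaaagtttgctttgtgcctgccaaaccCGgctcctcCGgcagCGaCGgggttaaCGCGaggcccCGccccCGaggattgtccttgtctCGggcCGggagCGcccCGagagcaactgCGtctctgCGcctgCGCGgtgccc
Suclg1: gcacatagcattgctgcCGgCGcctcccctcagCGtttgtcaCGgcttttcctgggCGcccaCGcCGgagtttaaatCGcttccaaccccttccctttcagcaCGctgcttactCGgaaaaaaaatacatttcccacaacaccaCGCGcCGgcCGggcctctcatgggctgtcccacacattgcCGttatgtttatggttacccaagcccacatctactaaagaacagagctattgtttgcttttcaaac
Ldha: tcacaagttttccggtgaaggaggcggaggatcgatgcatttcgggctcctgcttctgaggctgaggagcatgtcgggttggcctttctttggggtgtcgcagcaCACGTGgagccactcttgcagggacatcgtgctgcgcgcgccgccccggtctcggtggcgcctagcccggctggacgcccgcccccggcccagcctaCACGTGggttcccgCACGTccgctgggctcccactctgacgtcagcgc
The Sucla2 window holds 18 CG dinucleotides at a GC content of 61.2%, the Suclg1 window 15 at 53.2%, and the median over all 32851 windows of this length is 6 at 52.4%.

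The letters ACGTG on either strand are the core to which the hypoxia factor HIF binds, and CACGTG, which contains them, is an E-box bound by MYC and its relatives. In windows of 250 bases before to 50 after the start, ACGTG on either strand was found in 46.9% of the 49 windows of the 34 members that the table holds, in 19.6% of all windows and in 26.6% of the 9200 windows of tested genes. By gene, 16 of the 34 had a match in at least 1 window. From transport and glycolysis these were Slc2a1, Slc16a1, Slc16a3, Hk1, Hk2, Pfkm, Aldoa, Gapdh, Pgk1, Pgam1 and Ldha. The others were G6pdx, Pdhb, Idh3g, Ogdh and Mdh1. Windows of the same gene can overlap, and all 6 of Ogdh matched. Genes with more windows have more chances of a match. No share by gene was computed over other genes, so the count by gene has no background. Ldha matched at the first of its 2 starts only. Base composition was not matched between these sets of windows, and its part in the difference was not tested. CACGTG was found in 12.2% of the members' windows, those of Ldha, Ogdh, Pfkm and Slc16a1, and in 10.5% of those of tested genes. Neither Sucla2 nor Suclg1 has ACGTG in its window. A match describes letters only, and binding was not measured here.

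Ordered by level, the list ran from Gapdh at 1682 FPKM (the mean of both group means) down to Ldhb at 0.0619. Gapdh, glyceraldehyde-3-phosphate dehydrogenase, was above every other member in all 5 libraries. Ldha (745 FPKM) and Aldoa (649 FPKM), lactate dehydrogenase A and the aldolase of most tissues, came next and were not separated from each other beyond their spread. Eno1, Tpi1, Gpi1, Tkt, Pgk1, Mdh2, Taldo1 and Pgam1 followed between 343 and 243 FPKM, each overlapping its neighbour in this order. The TCA cycle genes apart from Mdh2 sat lower, from Idh3g at 159 to Sucla2 at 15.6 FPKM. At the bottom, Pfkm (2.39 FPKM), Slc16a3 (0.972 FPKM) and Ldhb were each separated from the gene above.

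Some of the most abundant transcripts have near-identical copies elsewhere in the genome. By alignment to annotated transcripts, Gapdh shared at least 95% identity over at least 200 bases with 87 other genes, of which 85 are pseudogenes. Ldha and Pgk1 each had 4 such copies, Eno1 had 3, and Gpi1, Tpi1, Pgam1 and Ldhb had 1 each; the remaining 28 members had 0. How the authors' counting shared reads among copies is not given in the sources used here, so the levels of these 8 genes carry that uncertainty.

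**Figure D2:**
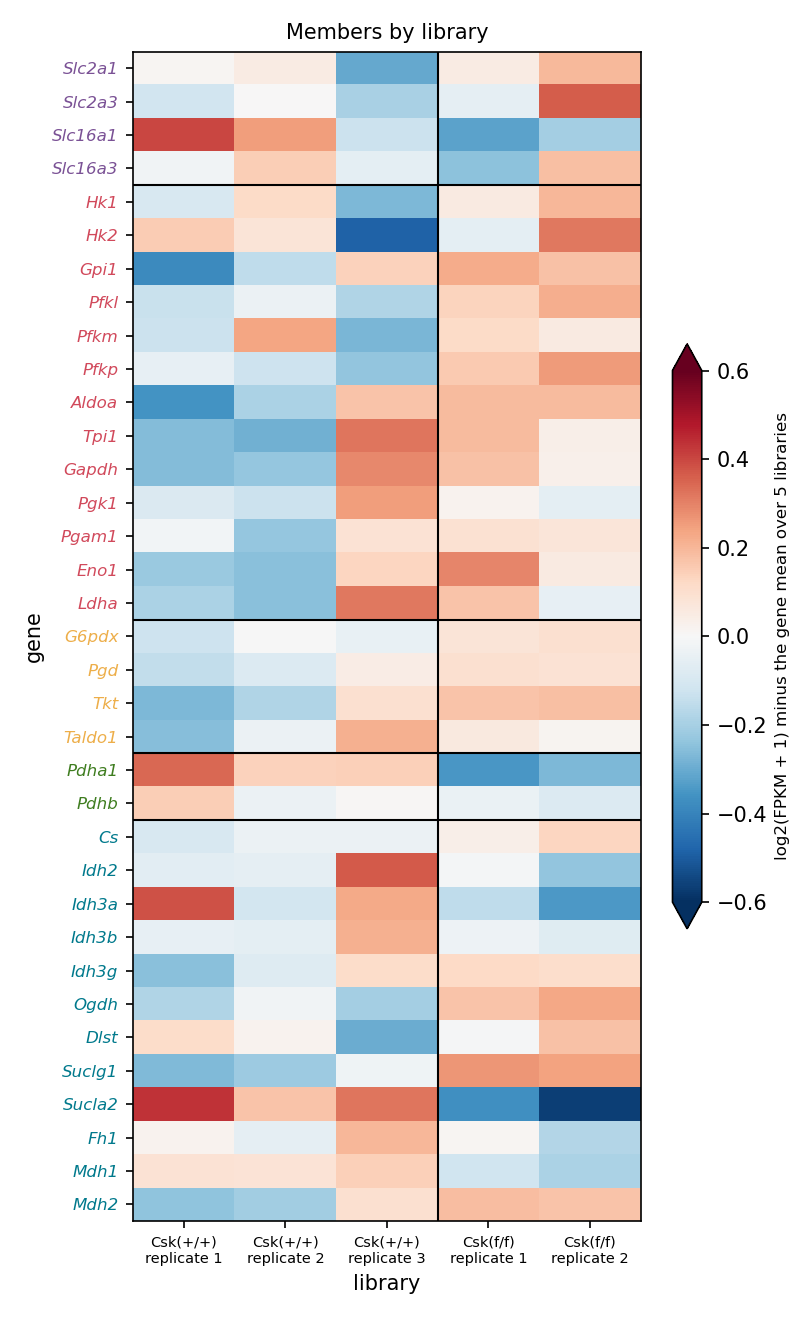
Each row is one of the 35 tested genes, each column a library, and colour gives log2(FPKM + 1) minus the gene's mean over the 5 libraries, from blue (lower) to red (higher), with lines between steps of metabolism and between the groups. The glycolytic rows from Aldoa to Ldha are blue in Csk(+/+) replicates 1 and 2 and red in replicate 3, while Suclg1 and Sucla2 show opposite colours that change at the line between the groups.

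Csk(+/+) replicate 3 stood apart for these genes, and across the table as well. Over all tested genes it correlated at 0.952 and 0.956 with Csk(+/+) replicates 1 and 2, beside 0.972 between those. All FPKM in the table summed to 631669, 639454 and 764666 against 716891 and 676607. Replicate 3 was the highest of the Csk(+/+) libraries for 18 of the 35 members (51.4%), against 28.2% of all tested genes. The members' summed FPKM was 5732, 5839 and 7525 against 7273 and 6842, so the groups overlapped only through replicate 3. As a share of all FPKM in the table, the same sums were 0.907%, 0.913% and 0.984% against 1.01% and 1.01%. Without replicate 3, 2 members passed the adjusted threshold (4.05% of all tested genes then passed), with 12 higher and 3 lower members below an unadjusted p of 0.05, or 42.9% of the 35 beside 34.7% of all tested genes (13.3% higher, 21.4% lower).

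Glucose and lactate transport showed no difference that passed the test. Slc2a1 (GLUT1), the main glucose carrier of lymphocytes, had FPKM of 16.9, 17.4 and 13.3 against 17.4 and 19.3. The lowest value was that of Csk(+/+) replicate 3, and both libraries labelled Csk(f/f) lay above the rest, though by as little as 17.37 against 17.35 FPKM. Groups that did not overlap were common, at 45.1% of all tested genes. Slc2a3 (GLUT3), a carrier of high affinity, had 6.34, 6.95 and 5.95 against 6.66 and 9.22 FPKM, and the groups overlapped. Slc16a1 (MCT1), which carries lactate and pyruvate across the membrane, had 22.8, 20.4 and 15.5 against 13.4 and 14.7 FPKM, with every Csk(+/+) library above both others. Its log2 fold change was -0.44 ± 0.19 (SE; limma adjusted p 0.237), and -0.08 after correction for GC content. Slc16a3 (MCT4), the lactate exporter of strongly glycolytic cells, stayed near the filter at 0.94, 1.18 and 0.888 against 0.656 and 1.23 FPKM.

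Glycolysis leaned upward as a group, by small differences. Of its 13 tested genes 12 had positive log2 fold changes, with a median of 0.21 and a range of -0.03 to 0.34, and 1 of 13 (7.69%) reached an unadjusted p under 0.05, beside 21.7% of all tested genes. After GC correction the median was 0.01, with 8 positive and 5 negative. Without Csk(+/+) replicate 3 all 13 were positive (44.4% of all tested genes), with a median of 0.28, and 7 reached an unadjusted p under 0.05 (53.8%, beside 34.7% of all tested genes); with both changes 10 of 13 were positive, with a median of 0.18. The group's summed FPKM was 3909, 3961 and 5411 against 5197 and 4786.

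Phosphofructokinase, which commits glucose to glycolysis, held the clearest values of the group. Pfkp, its platelet-type gene, had 59.3, 56.3 and 51.9 FPKM against 68.5 and 73.5. Both latter libraries lay above all 3 others, the log2 fold change was 0.34 ± 0.13 (SE; limma adjusted p 0.2), and after GC correction it was 0.45 (adjusted p 0.375). Pfkl, the liver-type gene, had 29.5, 31.7 and 28.6 against 35.8 and 38.0 FPKM and did not overlap either. Its log2 fold change of 0.29 became 0.01 after GC correction. Pfkm, the muscle-type gene, was scarce, with 2.05, 2.93 and 1.75 against 2.61 and 2.45 FPKM, and its groups overlapped.

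The hexokinases, which trap glucose in the cell, overlapped between the groups. Hk1, the widely expressed form, had 18.7, 21.8 and 16.5 against 20.8 and 23.2 FPKM. Hk2, the form induced in growing cells, had 10.2, 9.69 and 6.24 against 8.71 and 11.6 FPKM, so its lowest library was again Csk(+/+) replicate 3. The intervals of their log2 fold changes, -0.18 to 0.59 and -0.36 to 0.78, still allow differences of either sign.

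Gpi1, the isomerase after hexokinase, had 233, 273 and 334 FPKM against 354 and 343, without overlap (log2 fold change 0.33 ± 0.17 SE, limma adjusted p 0.292; 0.21 after GC correction, and 0.21 without Csk(+/+) replicate 1). Aldoa had 489, 549 and 707 against 716 and 716 FPKM, with Csk(+/+) replicate 3 next to the libraries labelled Csk(f/f). Eno1, enolase, had 285, 279 and 364 against 407 and 345 FPKM and overlapped through that same replicate. Group means of the remaining enzymes of the lower part of the path were 301 ± 76 (SD, n = 3) against 337 ± 26.2 FPKM (SD, n = 2) for Tpi1, and 232 ± 25.7 against 254 ± 2.67 for Pgam1. Gapdh had 1375, 1402 and 2008 FPKM against 1859 and 1681, with its highest value in Csk(+/+) replicate 3. Pgk1, the first step that makes ATP, was the member with a negative value, at 289 ± 43.3 against 281 ± 11.2 FPKM.

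Ldha, which reduces pyruvate to lactate, had 642, 616 and 911 FPKM against 824 and 708. The groups overlapped, and the log2 fold change of 0.10 had an interval of -0.38 to 0.59. Ldhb, the heart-type subunit, was listed at 0.0534, 0.0865 and 0.0713 against 0.107 and 0 FPKM. These are the values of a few fragments at most, since 1 fragment corresponds to between 0.0317 and 0.0795 FPKM of Ldhb in these libraries, and the gene was not tested.

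Isozyme composition did not separate the groups in any of the 5 sets examined. Hk2 made up 31.2% ± 3.97 (SD, n = 3) of hexokinase FPKM in Csk(+/+) and 31.4% ± 2.74 (SD, n = 2) in the other group. Pfkp made up 63.4% ± 1.68 and 64.3% ± 0.345 of phosphofructokinase, Pfkl 34% ± 1.33 and 33.4% ± 0.143, and Pfkm the small rest. Slc2a1 was 71.1% ± 1.82 and 70% ± 3.3 of the pair of glucose carriers, and Slc16a1 was 95.1% ± 0.849 and 93.8% ± 2.17 of the pair of lactate carriers. Ldhb was 0.0101% ± 0.00346 and 0.00648% ± 0.00916 of lactate dehydrogenase. With 3 libraries against 2, an exact permutation test cannot give a p below 0.1, so no test of these shares is given.

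**Figure D3:**
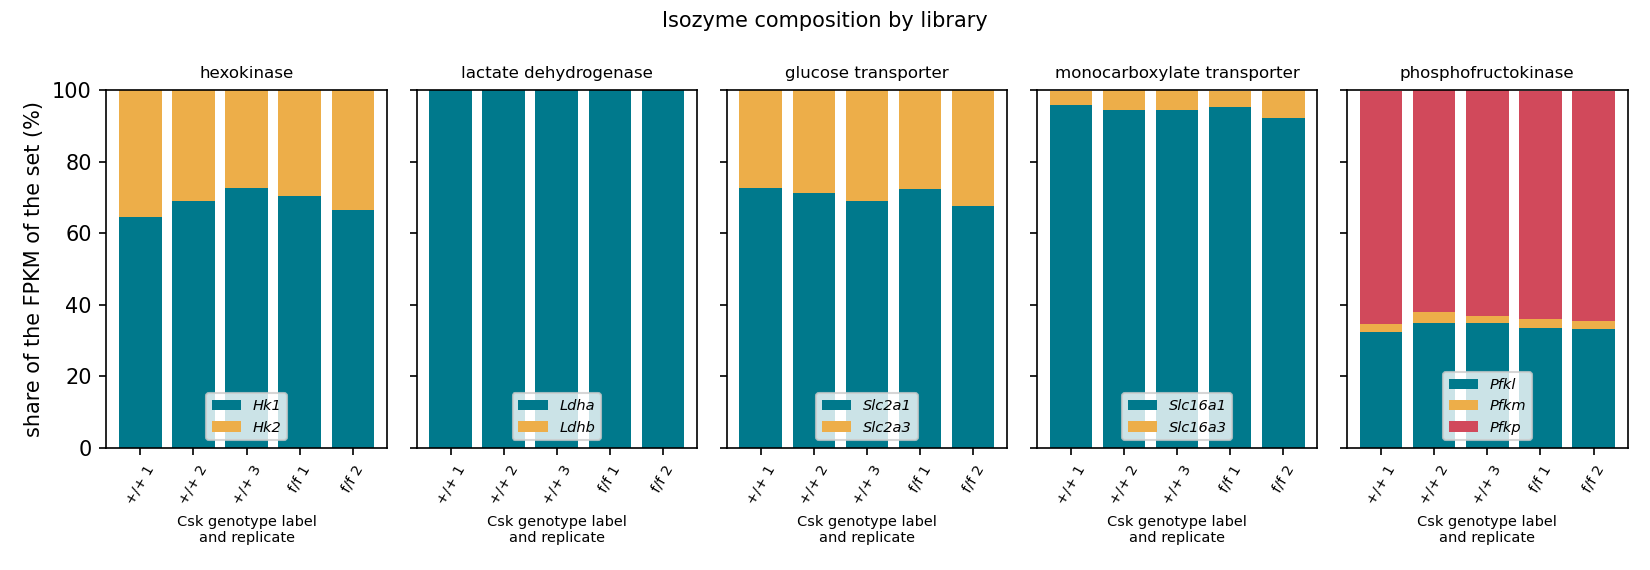
Stacked bars give the share of FPKM (vertical axis, percent) held by each gene of 5 isozyme sets in each library (horizontal axis, Csk(+/+) replicates 1 to 3, then Csk(f/f)-labelled replicates 1 and 2). Hk1, Ldha, Slc2a1, Slc16a1 and Pfkp hold most of their sets in all 5 libraries, and the bars of both groups overlap in height in every set.

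The pentose phosphate genes had positive log2 fold changes in 4 of 4 cases, with a median of 0.15, and 0.05 after GC correction, and none reached an unadjusted p under 0.05. G6pdx, the dehydrogenase that sets entry into the path, had 23.9, 26.2 and 25.4 FPKM against 27.7 and 28.1. The groups did not overlap, but the difference was small (log2 fold change 0.14, interval -0.16 to 0.45; 0.00 after GC correction). Pgd, the next NADPH-forming enzyme, had 107, 112 and 123 against 127 and 126 FPKM. Tkt, transketolase of the reversible arm, had 238, 253 and 307 against 324 and 325 FPKM, with a log2 fold change of 0.29 ± 0.15 (SE; limma adjusted p 0.285) that became 0.10 after GC correction. Taldo1, transaldolase, had 212, 247 and 295 against 264 and 257 FPKM and overlapped.

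Pyruvate dehydrogenase differed between its E1 subunits. Pdha1, the catalytic alpha subunit that kinases phosphorylate to switch the complex off, had 44.7, 38.6 and 38.7 FPKM against 27.2 and 28.8. All Csk(+/+) libraries lay above both others, and the log2 fold change was -0.52 ± 0.14 (SE; limma adjusted p 0.155). After GC correction it was -0.28. Another setting weighted each library by its scatter around its group. Csk(+/+) replicate 3 had a weight of 0.259 and each other library at least 1.35, so this setting is not independent of leaving that replicate out. With these weights Pdha1 passed at -0.54 (limma adjusted p 0.04), as did 6.55% of all tested genes.

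Pdhb, the beta subunit that pairs with it, had 67.6, 59.4 and 61.2 against 59.3 and 57.5 FPKM, a log2 fold change of -0.10 with an interval of -0.39 to 0.19. The ratio of Pdhb to Pdha1 was 1.51, 1.54 and 1.58 against 2.18 and 1.99. The groups of ratios were apart, by 0.43 on the log2 scale of FPKM and by 0.37 after GC correction. For every ratio given here the corrected value is on log2(FPKM + 1), so the 2 differences are not on the same scale. GC content was 46.4% for Pdhb and 45.5% for Pdha1, and its part in the ratio was not tested. The subunit ratios given here were chosen after the values had been seen, so they are descriptions with no test.

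The TCA cycle genes were split, with 6 positive and 6 negative log2 fold changes, a median of 0.02 and the widest range of the 5 steps, from -0.78 to 0.42. At an unadjusted p under 0.05 stood 3 of the 12, Ogdh and Suclg1 with higher and Sucla2 with lower means. That is 25%, beside 21.7% of all tested genes. After GC correction the median was 0.10, with 7 positive and 5 negative.

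Succinyl-CoA synthetase makes ATP or GTP from succinyl-CoA, with an alpha subunit from Suclg1 and a beta subunit from either Sucla2, the ATP-forming type, or Suclg2, the GTP-forming type. Suclg1 had 57.9, 60 and 68.7 FPKM against 84.3 and 82.8. Sucla2 had 21.8, 18.0 and 20.1 FPKM against 12 and 10.4. Suclg2, which is not among the 36, had 32.9, 27.0 and 25.8 against 21 and 23.6 FPKM. None of the 3 genes overlapped between the groups, as was so for 45.1% of all tested genes (20.7% higher, 24.5% lower). The alpha subunit stood opposite in direction to both beta subunits. The log2 fold change of Suclg2 was -0.34, and -0.04 after GC correction.

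The log2 fold change was 0.42 ± 0.13 for Suclg1 (SE; limma adjusted p 0.17), with group means of 62.2 ± 5.72 and 83.5 ± 1.03 FPKM. For Sucla2 it was -0.78 ± 0.16 (adjusted p 0.154), with means of 19.9 ± 1.89 and 11.2 ± 1.17 FPKM. GC correction moved these values to 0.67 and -0.43. Without Csk(+/+) replicate 3 both passed, Suclg1 at 0.50 (adjusted p 0.049) and Sucla2 at -0.77 (adjusted p 0.047), and with GC correction as well only Suclg1 did, at 0.80 (adjusted p 0.0369), as did 0.399% of all tested genes. Under the library weights both passed (0.48 and -0.76, adjusted p 0.0392 and 0.032).

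The ratio of Suclg1 to Sucla2 was 2.66, 3.34 and 3.42 against 6.99 and 7.96. Its mean went from 3.14 ± 0.417 (SD, n = 3) to 7.48 ± 0.685 (SD, n = 2), a difference of 1.26 on the log2 scale of FPKM. After GC correction, on the scale of log2(FPKM + 1), the difference was 1.10. GC content was 45.3% for Suclg1 and 43.2% for Sucla2, and neither gene had a near-identical copy. The part of either in the ratio was not tested. These genes hold the highest (0.42) and lowest (-0.78) log2 fold changes of the tested members, so a wide ratio follows from their choice. Against Suclg2, the ratio of Suclg1 was 2.22 ± 0.452 and 3.76 ± 0.347, again without overlap. The ratio of the beta subunits, Sucla2 to Suclg2, was 0.702 ± 0.0661 and 0.507 ± 0.0929. Among all ratios examined, only that of Ogdh to Dlst overlapped between the groups. Ratios of other gene pairs were not computed, so how common such gaps are is not known here.

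**Figure D4:**
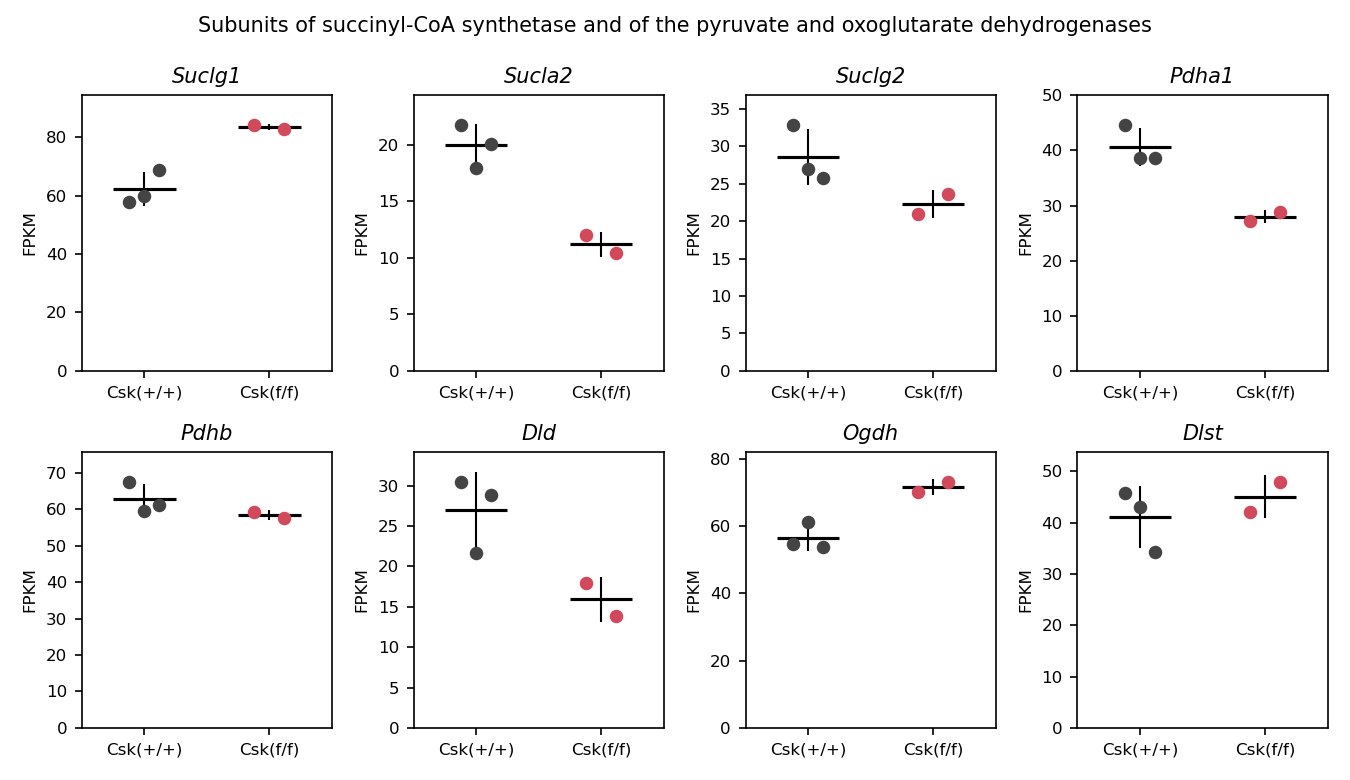
FPKM (vertical axes, starting at 0) of subunit genes of succinyl-CoA synthetase (Suclg1, Sucla2, Suclg2), pyruvate dehydrogenase (Pdha1, Pdhb), the shared E3 subunit (Dld) and oxoglutarate dehydrogenase (Ogdh, Dlst), by group, with a point per library, a horizontal line at the mean and a vertical line of 1 SD to each side. Suclg1 and Ogdh lie higher in both libraries labelled Csk(f/f), while Sucla2, Suclg2, Pdha1 and Dld lie lower, and Dlst overlaps.

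Oxoglutarate dehydrogenase makes the succinyl-CoA that the synthetase uses. Ogdh, its E1 subunit, had 54.7, 61.3 and 53.9 FPKM against 70.1 and 73.3, with both libraries labelled Csk(f/f) above the rest and a log2 fold change of 0.34 ± 0.12 (SE; limma adjusted p 0.2). After GC correction it was 0.20. Dlst, its E2 subunit, had 45.8, 43.1 and 34.3 against 42.1 and 48 FPKM and overlapped, as did the ratio of Ogdh to Dlst. The ratio of Ogdh to Dld was 2.16 ± 0.575 (SD, n = 3) and 4.59 ± 0.954 (SD, n = 2), without overlap. Its log2 difference was 1.10, and 0.48 after GC correction.

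Isocitrate dehydrogenase 3, the NAD-dependent enzyme of the cycle, is built from alpha, beta and gamma subunits. Idh3a, the catalytic alpha subunit, had 36.9, 25.9 and 32.9 FPKM against 25.1 and 21.9, without overlap (log2 fold change -0.41 ± 0.18 SE, limma adjusted p 0.232; -0.25 after GC correction, and -0.16 with Csk(+/+) replicate 3 left out as well). Group means were 94.2 ± 10.4 and 88.2 ± 1.8 FPKM for Idh3b, and 149 ± 18.7 and 169 ± 1.27 FPKM for Idh3g. The ratio of Idh3g to Idh3a was 4.79 ± 1.11 and 7.21 ± 0.654, a log2 difference of 0.62 (0.39 after GC correction). That of Idh3b to Idh3a was 3.01 ± 0.532 and 3.77 ± 0.293, a log2 difference of 0.34 (0.31 after GC correction). Neither ratio overlapped between the groups. Idh2, the NADP-dependent mitochondrial form, was at 46.6 ± 8.49 and 39.9 ± 4.56 FPKM and overlapped.

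Cs, citrate synthase, which opens the cycle, was at 142 ± 3.43 and 156 ± 7.07 FPKM (log2 fold change 0.14, interval -0.14 to 0.41; 0.23 after GC correction). Fh1, fumarase, was at 111 ± 10.4 and 100.4 ± 9.47 FPKM and overlapped. The malate dehydrogenases differed in sign: Mdh2, the mitochondrial form, was at 237 ± 31.6 and 289 ± 1.74 FPKM, and Mdh1, the cytosolic form of the malate-aspartate shuttle, at 146 ± 3.49 and 122 ± 4.26 FPKM. Neither gene overlapped between the groups, and neither passed (limma adjusted p 0.276 and 0.248). The log2 fold change of Mdh2 was 0.30, and 0.23 after GC correction. That of Mdh1 was -0.26, and -0.03 after GC correction. With Csk(+/+) replicate 3 left out as well, both were positive, at 0.39 for Mdh2 and 0.04 for Mdh1. Their ratio, Mdh2 to Mdh1, was 1.62 ± 0.176 and 2.38 ± 0.0689, a log2 difference of 0.56. After GC correction, on the scale of log2(FPKM + 1), the difference was 0.26.

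Across all members, the libraries of the groups did not overlap for 18 of 35 (51.4%), 12 higher and 6 lower in those labelled Csk(f/f), where 45.1% of all tested genes did not overlap (20.7% higher, 24.5% lower). Sorted by transcript GC content, 10 members lay below 48%, of which 8 were negative with a median log2 fold change of -0.20, beside a median of -0.32 for all genes in that range. Between 48% and 53% lay 14 members, 13 of them positive, with a median of 0.16 beside 0.04. At 53% or more lay 11 members, 9 of them positive, with a median of 0.20 beside 0.26. Suclg1, at 45.3%, stood above most genes of like GC content.

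**Figure D5:**
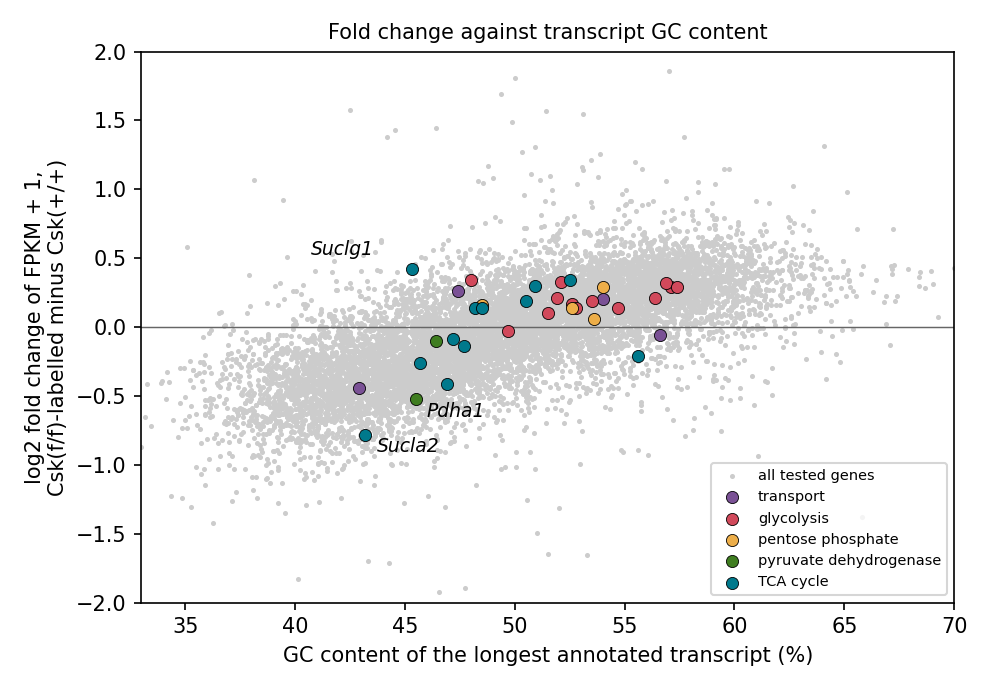
Log2 fold change of FPKM + 1 (vertical axis, Csk(f/f)-labelled minus Csk(+/+)) against the GC content of the longest annotated transcript (horizontal axis, percent) for tested genes (grey) and the 35 members (coloured by step of metabolism); 56 of 10119 genes lie beyond the axes. The grey cloud climbs from left to right, most members lie within it, and Suclg1 lies at its upper edge while Sucla2 lies low at a similar GC content.

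Beyond the 36, 64 further genes of these paths were listed in the table and 47 were tested. None passed the adjusted threshold (limma), with 2 higher and 5 lower genes below an unadjusted p of 0.05, or 14.9% beside 21.7% of all tested genes. After GC correction 1 of 47 reached that level (2.13% beside 9.96%). It was Pgm2, a phosphoglucomutase, at 17.8, 19.8 and 21.2 FPKM against 25.5 and 24.2, with a log2 fold change of 0.33 that became 0.51.

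Among further genes of glycolysis and its regulation, 14 of 26 were tested; 10 of these 14 were positive, and the median over the 14 was 0.17 on the log2 scale. Slc2a6, a lysosomal hexose carrier, had 24.9, 26.6 and 22.7 FPKM against 36.6 and 35.9, without overlap (log2 fold change 0.54 ± 0.14 SE, limma adjusted p 0.155; 0.23 after GC correction). Hif1a, the hypoxia-inducible subunit of HIF, had 20.8, 17.1 and 17.9 against 14.5 and 9.32 FPKM, a log2 fold change of -0.63 that was -0.21 after GC correction, -0.33 without Csk(f/f) replicate 2 and -0.92 without Csk(f/f) replicate 1. Pkm2, the table's name for the pyruvate kinase gene Pkm, had 521, 509 and 633 against 659 and 635 FPKM, with Csk(+/+) replicate 3 just below the others. Its log2 fold change of 0.23 turned to -0.07 after GC correction.

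Of 7 further pentose phosphate genes, 6 were tested. Rpe, the ribulose-phosphate epimerase, had 10.8, 9.88 and 11.7 FPKM against 6.89 and 4.77 (log2 fold change -0.80 ± 0.20 SE, limma adjusted p 0.154; -0.32 after GC correction). Prps2, which activates ribose phosphate for nucleotide synthesis, had 30.6, 28.1 and 29.0 against 22.5 and 20.7 FPKM, and its value of -0.42 became -0.02. Pgls, the lactonase between G6pdx and Pgd, had 129, 163 and 227 against 237 and 210.3 FPKM and overlapped. Without Csk(+/+) replicate 3 it passed at a log2 fold change of 0.62 (limma adjusted p 0.049), as did 4.05% of all tested genes. After GC correction its value was 0.11 with all libraries, and 0.39 without that replicate (limma adjusted p 0.172). H6pd, the counterpart of G6pdx in the endoplasmic reticulum, stayed below 2 FPKM in all 5 libraries.

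Genes of pyruvate entry into mitochondria had lower means in 9 of 10 tested cases, with a median log2 fold change of -0.19, which became 0.03 after GC correction with 3 of 10 negative. Dld, the E3 subunit that pyruvate and oxoglutarate dehydrogenase share, had 30.5, 21.7 and 28.8 FPKM against 17.9 and 13.9 (log2 fold change -0.72 ± 0.20 SE, limma adjusted p 0.155; -0.28 after GC correction). Brp44, the former symbol of the pyruvate carrier gene Mpc2, had 30.2, 28.5 and 40.7 against 27.1 and 24.8 FPKM. Pdk3, a kinase that inhibits pyruvate dehydrogenase, had 45.8, 41.8 and 50 against 38.0 and 39.0 FPKM. Pcx, pyruvate carboxylase, was the positive member, at 3.48 ± 0.538 and 4.5 ± 0.425 FPKM.

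Of 19 further TCA-linked genes 17 were tested, with 10 positive and a median of 0.08. Slc25a1, the mitochondrial citrate carrier, had 53.4, 60.9 and 63.7 against 79.5 and 73.7 FPKM, a log2 fold change of 0.37 that became 0.05 after GC correction. Idh1, the cytosolic isocitrate dehydrogenase, had 3.52, 4.00 and 3.89 against 2.21 and 3.02 FPKM.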

How the data were processed

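The deposited table held FPKM with 1 column per library; the authors used TopHat2 (2.0.8), Cufflinks (2.1.1) and the mm9 build, per the submitters' processing notes; annotation, strand and scaling between libraries are not given in the sources used here. RNA was taken in TRIzol and made into libraries with a NEBNext Ultra kit, per the labels' protocols. 1 stray repeat of the header was dropped. Genes with at least 1 FPKM in at least 2 libraries were fitted on log2(FPKM + 1) by limma 3.58.1 under R 4.3.3 (prior trended by level), and p-values of all 10242 genes were adjusted by Benjamini-Hochberg. Fold changes are on that scale and understate the change of low genes. Ratios before GC correction are of FPKM itself. Depth was estimated from the spacing of low FPKM times transcript length, so it is approximate. The code was tested on simulated data.

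GC content came from the longest GENCODE M21 transcript (GRCm38) by name, for 10119 of the tested genes; the correction subtracted a lowess trend (span 0.3) per library. As builds differ, no gene coordinates were joined to the values. Libraries were grouped by title. Named were all members, with every library's value for the 4 smallest p of each step and for isozyme sets, and up to 4 genes from each further list; 1 gene of those lists is not reported here by name. Members, lists and tests were chosen with earlier results of these data known. Alternatives were pseudocounts, filters, scalings, GC correction, priors, library weights, a replicate block and libraries left out. P-values measure the spread between these 5 libraries. Proteins were not analysed here.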

Additional observations from a re-analysis of the deposited data

How the results depend on the processing

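Signs were followed for 37 tested genes. Aldoa, Tpi1, Gapdh, Pgk1, Pgam1, Cs, Idh2, Idh3b, Idh3g, Dlst, Fh1, Mdh1 and Mdh2 are not in these counts. Of the 37, 25 kept the sign of their log2 fold change in each of the 16 alternatives that tested them and 12 turned in at least 1. The filter at 5 FPKM left out 5 of the 37, namely Slc16a3, Pfkm, H6pd, Pcx and Idh1. Slc16a3 also fell below the filter at 1 FPKM without Csk(+/+) replicate 2 or Csk(f/f) replicate 2. What made signs turn was not tested. After GC correction the value turned for Hk1 (-0.06), Pfkm (-0.08), Eno1 (-0.0019), Taldo1 (-0.12), Pkm2 (-0.07), Pdhb (0.09) and Brp44 (0.02), and the members' median was 0.01. Among the members outside the 37, the value also turned for Pgam1 (-0.02) and Idh3b (0.06). With GC correction and without Csk(+/+) replicate 3 the value turned for Slc2a1 (-0.06), Hk1 (-0.10), Hk2 (-0.05), Pfkm (-0.14), Pdhb (0.13), Pdk3 (0.0039) and Brp44 (0.21). Among the members outside the 37, it then turned for Pgk1 (0.15), Idh3b (0.21), Fh1 (0.12) and Mdh1 (0.04). Slc16a3 turned under quantile normalization (0.05) and without Csk(f/f) replicate 1 (0.16), Ldha without Csk(+/+) replicate 2 (-0.0026) or Csk(f/f) replicate 1 (-0.01) and Taldo1 without Csk(+/+) replicate 1 (-0.05). With 1 library left out at a time Ldha reached up to 0.28 and Taldo1 up to 0.18, both without Csk(+/+) replicate 3.

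The number of members past the adjusted threshold, 0 in the main analysis (limma), was 3 with library weights (8.57%, beside 6.55% of all tested genes), 1 with GC correction and without Csk(+/+) replicate 3 (2.86%, beside 0.399%), and 0 to 2 over the analyses that left out 1 library. Members higher at an unadjusted p under 0.05 numbered 1 with an untrended prior (2.86%, beside 7.08% of all tested genes), 11 with library weights (31.4%, beside 13.2%), 8 with GC correction and without Csk(+/+) replicate 3 (22.9%, beside 10.6%), and 0 to 12 with 1 library left out. The 0 arose without Csk(f/f) replicate 1 or 2 (2.78% and 1.52% of all tested genes), and the 12 without Csk(+/+) replicate 3 (34.3%, beside 13.3%). Members lower numbered 4 with quantile normalization (11.4%, beside 11.6%), 4 with library weights (11.4%, beside 21.7%), and 1 to 3 with 1 library left out, the 1 without Csk(f/f) replicate 1 (2.86%, beside 10.3%). Leaving out a Csk(f/f) library leaves 1, which is then assumed to vary like the others. Library weights also brought Slc2a6 (0.49) and Rpe (-0.76) past the threshold. These weights count Csk(+/+) replicate 3 least, so they are not independent of leaving it out.

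Same-numbered libraries did not deviate together (correlations -0.13 and 0.11), so the numbers were not taken as a pairing. A replicate block gives Csk(+/+) replicate 3, the only library of that number, a term of its own. Its log2 fold changes therefore equal those without that library (Sucla2 -0.77 and Dld -0.67 in both), so it is no separate check. With the block, 1 member passed (Sucla2, limma adjusted p 0.0445), among 492 genes in all, and Dld passed too. Members at an unadjusted p under 0.05 numbered 12 higher (34.3%, beside 14.1% of all tested genes) and 5 lower (14.3%, beside 22.7%). Depth limits Ldhb, Slc16a3 lay near the filter, and with 5 libraries the 95% intervals of all tested members but 5 include 0.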
